A study of Mus musculus with 12 samples.

Results

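Transcript levels of 8 genes were followed through 12 RNA-Seq libraries of mouse osteoblastic cells: the CCN family genes *Cyr61*, *Ctgf*, *Nov*, *Wisp1* and *Wisp2*, the YAP/TAZ target *Ankrd1*, and the coactivator genes *Yap1* and *Wwtr1*. They were chosen by symbol, as the files spell them, out of 23284 genes listed for sorted osteoblasts and 24346 listed for MC3T3-E1 cells, and all 8 were found in every library. The sorted osteoblasts were 7AAD-Lin-CD45-ECFP+ cells of female Col2.3-ECFP mice, in which a type I collagen promoter fragment drives enhanced cyan fluorescent protein in mature osteoblasts. The mice were 12 weeks old at the start and received PBS vehicle (3 libraries) or PTH, the 1-34 fragment of parathyroid hormone (3 libraries), in 5 daily doses of 40 µg/kg a week over 3 weeks, and cells were collected 24 h after the last injection. MC3T3-E1, a preosteoblastic line derived from mouse calvaria, was transduced with a retrovirus that carried a puromycin-resistance gene alone (mock, 3 libraries) or together with *Slpi*, the gene of secretory leukocyte protease inhibitor (3 libraries), and was selected and lysed while subconfluent. The labels do not say how many mice or which cultures stand behind each library, so p-values measure the spread between these libraries, which may be technical in the MC3T3-E1 experiment.

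CCN proteins are secreted, cysteine-rich matricellular proteins that bind integrins, heparan sulfate proteoglycans, LRP receptors and growth factors in the matrix. In bone, CYR61 (CCN1) and CTGF (CCN2) are produced by osteoblast-lineage cells and chondrocytes, NOV (CCN3) is known to oppose osteogenic signals, and WISP1 (CCN4) and WISP2 (CCN5) were first described as Wnt-induced genes. *Cyr61*, *Ctgf* and *Ankrd1* are classical readouts of the Hippo pathway: when its kinases are inactive, YAP (*Yap1*) and TAZ (*Wwtr1*) enter the nucleus and activate them through TEAD transcription factors. *Cyr61* and *Ctgf* are also immediate early genes, and the actin-regulated MRTF/SRF pathway acts on an overlapping group of targets.

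The promoters of 2 of these target genes are shown because the motif of TEAD factors lies in both. In RefSeq sequence of GRCm38.p6, promoter windows (250 bases before to 50 after the start) were given for 4 of the 8 members, namely *Cyr61*, *Ankrd1*, *Yap1* and *Wwtr1*. The 250 bases before the start of *Cyr61* (chr3:145649986-145650235, minus strand) and of *Ankrd1* (chr19:36119845-36120094, minus strand) read as follows, 5′ to 3′, with the TEAD motif GGAATG, on either strand, in capitals.
Cyr61: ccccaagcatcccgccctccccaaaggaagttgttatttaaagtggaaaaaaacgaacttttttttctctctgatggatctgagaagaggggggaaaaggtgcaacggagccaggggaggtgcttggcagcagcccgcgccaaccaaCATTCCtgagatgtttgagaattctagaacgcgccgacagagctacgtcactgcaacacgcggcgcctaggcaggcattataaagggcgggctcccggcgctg
Ankrd1: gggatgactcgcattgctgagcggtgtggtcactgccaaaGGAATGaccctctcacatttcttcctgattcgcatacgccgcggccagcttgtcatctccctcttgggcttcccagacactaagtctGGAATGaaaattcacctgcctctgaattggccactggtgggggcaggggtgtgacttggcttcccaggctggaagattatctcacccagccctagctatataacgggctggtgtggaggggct
The motif began 103 bases before the start of *Cyr61* and 210 and 123 bases before that of *Ankrd1*. The windows of *Yap1* and *Wwtr1* also held it, 141 bases before the start of *Yap1* and 136 bases before 1 of the starts of *Wwtr1*. Among all 32851 windows, 14.7% held the motif on either strand. The TCF/LEF motif CTTTGAT was found in *Wwtr1* among the 4 members and in 3.73% of all windows, whereas neither the AP-1 motif TGAGTCA nor the CArG box of SRF was found in the 4 members (both strands searched, with shares of 5.20% and 1.63% of all windows). The motifs in the 4 members did not overlap each other. A match describes letters in this window and does not show binding, and its absence says nothing about the factor.

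The values analysed were FPKM, which scale the reads of a gene by transcript length and by the mapped reads of its library, so that levels of different genes can be compared per length. Sums of FPKM were 400839 to 462460 per library in sorted osteoblasts and 541932 to 599746 in MC3T3-E1 cells, and 10795 to 11746 and 11049 to 11156 genes, respectively, reached an FPKM of 1. Correlations of log2(FPKM + 1) between replicates were lower among PTH libraries (0.908 to 0.946) than among Slpi libraries (0.989 to 0.991). *Slpi* itself was at 1.64, 2.38 and 2.62 FPKM with vehicle against 37.5, 19.8 and 27.2 with PTH, and at 377, 396 and 386 FPKM in mock cells against 2105, 1973 and 1848 in Slpi cells. The sorted cells had 6963 to 14280 FPKM of the osteoblast marker *Bglap* (osteocalcin), but *Col1a1* and *Col1a2* were listed at 0 in vehicle replicate 3 and all 3 PTH libraries, where a 0 may be a failed estimate. MC3T3-E1 cells had 1.05 to 1.73 FPKM of *Bglap* in mock and 2.67 to 2.85 in Slpi cells, and 29.3 to 30.9 and 84.3 to 88.3 FPKM of *Sp7*, the gene of osterix. Despite the CD45- gate, 8 neutrophil markers summed to 352 to 442 FPKM with vehicle and 653 to 2225 with PTH, with none at 0, and 6 lymphocyte markers to 135 to 214 and 4.02 to 28.6, and their part in the results was not tested. In PTH replicate 2, 12 heart muscle markers summed to 3002 FPKM, against 4.20 to 20.7 in the other sorted libraries.

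The levels of several CCN genes differed between the 2 cell systems, while *Cyr61* was high in both. In vehicle-treated osteoblasts *Cyr61* had the highest level of the 8 genes (472 ± 53.7 FPKM, SD, n = 3), followed by *Ctgf* (229 ± 18.8), *Wisp1* (136 ± 11.5), *Wwtr1* (43.1 ± 6.73) and *Yap1* (22.8 ± 2.32), with no overlap between neighbours in this order. *Nov* (2.78 ± 0.672) and *Wisp2* (2.22 ± 1.46) followed with overlapping ranges, and *Ankrd1* was below 0.3 FPKM in each vehicle library. In mock MC3T3-E1 cells *Nov* came first (318 ± 11.2 FPKM), *Cyr61* (168 ± 5.77) and *Wisp2* (164 ± 2.73) overlapped, and *Yap1* (26.5 ± 0.298), *Wwtr1* (24.4 ± 0.212), *Wisp1* (18.5 ± 0.218), *Ankrd1* (16.2 ± 0.320) and *Ctgf* (5.48 ± 0.382) followed without overlap. *Yap1* and *Wwtr1* thus stood at 20.4 to 50.8 FPKM in every library of both systems, whereas *Nov*, *Wisp2* and *Ctgf* differed widely between them. The experiments were prepared and fitted separately, so these levels are set side by side without a test. The sixth CCN gene, *Wisp3*, was at 0.0966 to 1.04 FPKM in sorted osteoblasts and 0.145 to 0.457 FPKM in MC3T3-E1 cells, too low to be tested in the latter, and did not pass the test in the former (PTH against vehicle, limma adjusted p = 0.490).

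**Figure D1:**
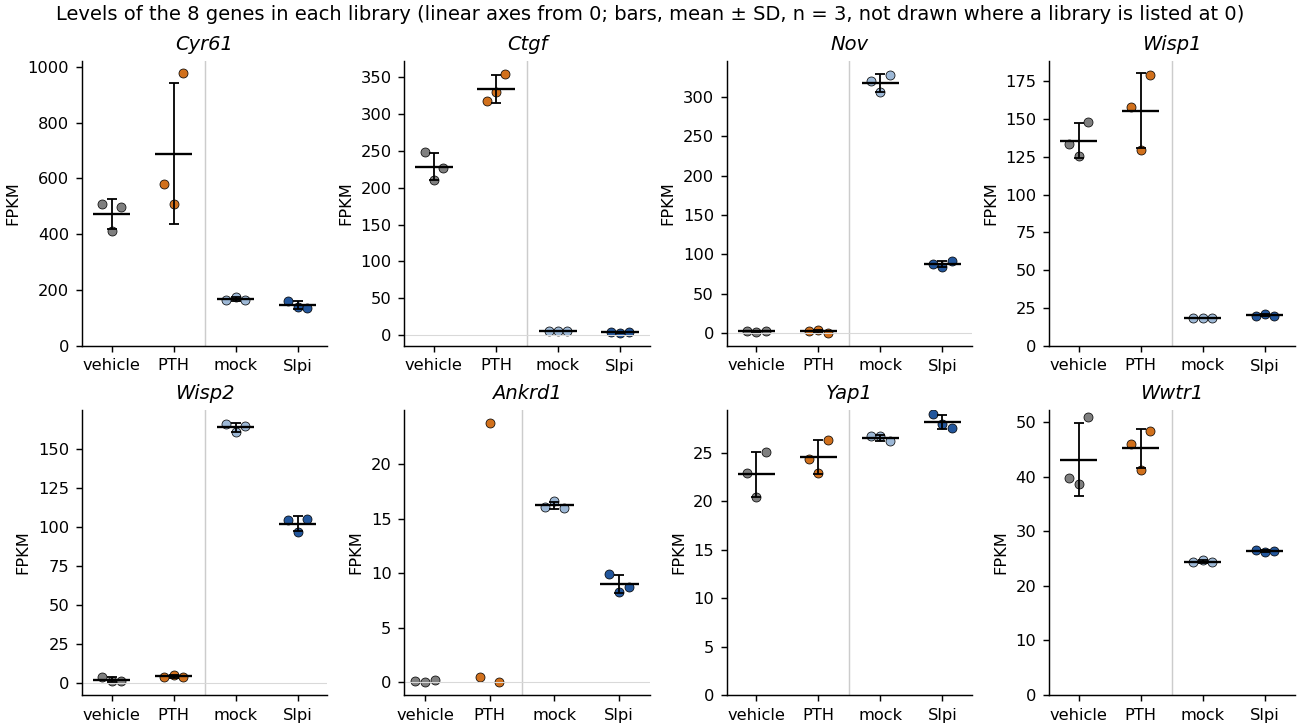
FPKM of the 8 genes on linear axes, with 1 dot per library, and the mean and SD of the 3 libraries of each group except where a library was listed at 0. *Ctgf* is high in both groups of sorted osteoblasts (211 to 354 FPKM) and low in MC3T3-E1 cells (3.13 to 5.81), whereas *Nov* is high in mock cells (305 to 327) and low in sorted osteoblasts (0.465 to 4.40).

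Summed over the 5 CCN genes, the level was 841 ± 79.8 FPKM with vehicle, 1185 ± 289 with PTH, 673 ± 8.74 in mock cells and 360 ± 16.1 in Slpi cells (SD, n = 3). Of this sum, *Cyr61* and *Ctgf* made up 56.0% and 27.2% with vehicle and 57.1% and 29.0% with PTH, and both differences were smaller than the SD among PTH libraries (6.62 and 5.25 percentage points). In MC3T3-E1 cells the share of *Nov* was 47.2% ± 1.06 in mock and 24.4% ± 1.21 in Slpi cells. The share of *Cyr61* was 24.9% ± 1.13 in mock and 40.6% ± 2.22 in Slpi cells, although its own level was lower in the latter.

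The first comparison asked how the genes respond in osteoblasts to 3 weeks of intermittent PTH. *Ctgf* rose 1.46-fold and was the 1 member of 8 that passed the test. Among all 13004 genes tested, 6.38% were called higher and 8.85% lower (limma, adjusted p under 0.05 over all genes tested). On the scale of log2(FPKM + 1), none of the 8 changed at least 2-fold at an unadjusted p under 0.05. Of all genes 5.59% did, 1.24% higher and 4.35% lower. *Ctgf* was also the 1 member whose groups did not overlap, which held for 40.4% of all genes. The median log2 fold change was 0.34 over the 8 members, of which *Ankrd1* entered the test through PTH replicate 2 alone. Without that library the median was 0.31 over the 7 members tested. With all libraries it was 0.01 over all genes tested, but 0.25 over the 562 genes with a mean of at least 100 FPKM. *Cyr61*, *Ctgf* and *Wisp1* share that level. At that level 24.02% of genes were called higher and 2.67% lower. In these bulk samples, a change in the share of cells that express a gene cannot be told apart from a change of its RNA per cell.

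*Ctgf*, the gene of a matrix protein that binds TGF-β and BMPs, was at 248, 211 and 227 FPKM in the vehicle libraries and at 317, 330 and 354 FPKM in the PTH libraries. Every PTH library was above every vehicle library. On the scale of log2(FPKM + 1), on which all fold changes are given, the difference was 0.55 (SE 0.0984, 95% CI 0.31 to 0.78, limma adjusted p = 0.0204), and the exact permutation p was 0.1, the smallest that 3 against 3 libraries allow. It stood at percentile 77.9 of the genes with at least 100 FPKM. The call was lost without PTH replicate 1 (adjusted p = 0.0542), vehicle replicate 1 (0.0811) or vehicle replicate 2 (0.0898), with a fold change of 0.49 to 0.61 over all libraries left out, and under quantile normalization (0.22, adjusted p = 0.163). Chondrocytes also express *Ctgf*, and of 5 chondrocyte markers tested (6 listed, median 0.93) *Sox9* (8.27 ± 1.205 and 16.6 ± 1.23 FPKM, 0.93, adjusted p = 0.0143) and *Acan* (13.9 ± 1.99 and 28.0 ± 7.20 FPKM, 0.93, 0.0320) were called higher with PTH and none lower, while *Col2a1* was at 566 to 676 and 541 to 686 FPKM. The other 2 tested markers were not called. *Col9a1* was at 3.29 to 4.67 FPKM with vehicle and 14.5, 12.5 and 3.42 FPKM with PTH (1.036, adjusted p = 0.158). *Col10a1* was at 14.8 to 22.8 FPKM with vehicle and 32.0, 25.9 and 1.298 FPKM with PTH (-0.545, adjusted p = 0.708). In PTH replicates 1, 2 and 3, *Acan* was at 33.7, 30.3 and 19.9 FPKM, *Sox9* at 17.6, 15.2 and 16.9, and *Col2a1* at 661, 541 and 686. The part of chondrocytes in the *Ctgf* values was not tested. A gene on the opposite strand overlaps *Ctgf* (chromosome 10, 24595442 to 24598683, mm10), and others overlap *Yap1* and *Wwtr1*. How strand was treated in counting is not given in the sources used here.

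*Cyr61*, which encodes an integrin-binding angiogenic and osteogenic CCN protein (chromosome 3, 145646976 to 145649981, mm10), was at 509, 410 and 497 FPKM with vehicle and at 581, 508 and 978 FPKM with PTH. PTH replicate 3 was far above the other libraries, while PTH replicate 2 lay among the vehicle libraries. The difference of 0.49 (SE 0.241, 95% CI -0.07 to 1.06) did not pass the test (adjusted p = 0.199) and was 0.21 without PTH replicate 3 (adjusted p = 0.306). The same library gave the highest value of all 19 immediate early genes on the list (19 of 19). This was not particular to them: it also gave the highest values of the osteoblast markers *Bglap* (14280 FPKM), *Sp7* (116), *Runx2*, *Alpl*, *Ibsp* and *Dmp1*. *Col1a1* and *Col1a2* were listed at 0 there. The share of all genes that peaked in this library was not counted. For example, the transcription factor genes *Fos* and *Egr1* were at 561 to 674 and 350 to 422 FPKM with vehicle, 670 to 738 and 416 to 454 in PTH replicates 1 and 2, and 1016 and 716 in PTH replicate 3. Immediate early genes respond within minutes to serum or stress, and the part of such a response in the *Cyr61* values was not tested. Of the 19 genes 4 were called higher and none lower, with a median log2 fold change of 0.46: *Egr3* (1.01, adjusted p = 0.0430), *Nr4a1* (0.67, 0.0368), *Junb* (0.61, 0.0454) and *Dusp1* (0.61, 0.0479). Over all genes tested 6.38% were called higher and 8.85% lower. The median level of the list was 125 to 140 FPKM in vehicle libraries. Of genes with a mean of at least 100 FPKM, 24.02% were called higher and 2.67% lower, with a median of 0.25.

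**Figure D2:**
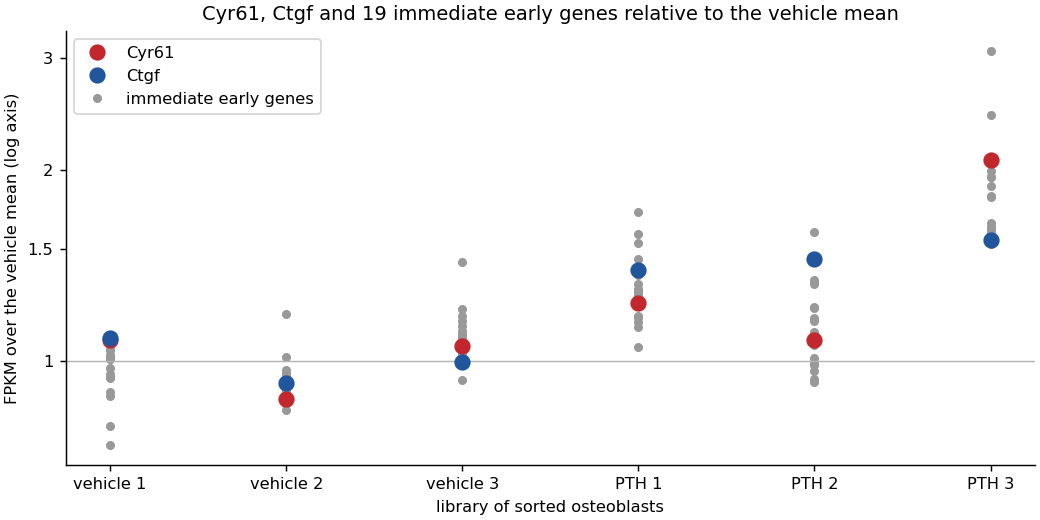
FPKM of *Cyr61*, *Ctgf* and the 19 immediate early genes in each sorted library, divided by the mean of the 3 vehicle libraries (log axis), with 1 dot per gene and library. In PTH replicate 3 all 19 immediate early genes reach their highest value, and *Cyr61* stands there at 2.07 times the vehicle mean, whereas *Ctgf* is above the vehicle libraries in all 3 PTH libraries.

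The remaining CCN genes did not pass the test in sorted osteoblasts. *Wisp1*, whose product promotes osteogenic differentiation, was at 133, 125 and 148 FPKM with vehicle and 158, 129 and 179 FPKM with PTH. These overlapping values gave a difference of 0.19 (95% CI -0.14 to 0.51, adjusted p = 0.378). *Wisp2*, which encodes the CCN protein without the C-terminal cystine-knot domain, was low in every library, at 3.89, 1.27 and 1.49 FPKM with vehicle and 4.19, 5.41 and 3.70 FPKM with PTH. Vehicle replicate 1 overlapped the PTH libraries, and the difference of 0.83 (95% CI 0.11 to 1.56) had an adjusted p of 0.108. The ratio of the *Wisp2* means was 2.00, and with a pseudocount of 0.1 the difference was 1.12 (limma adjusted p = 0.115). *Nov* was at 2.61, 2.21 and 3.52 FPKM with vehicle and 3.11, 4.40 and 0.465 FPKM with PTH. Its PTH libraries spanned the vehicle range on both sides, and the difference was -0.23 (95% CI -1.32 to 0.86, adjusted p = 0.7505) and turned to 0.33 without PTH replicate 3.

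*Ankrd1*, the gene of the cardiac ankyrin repeat protein, is a YAP/TAZ target that heart muscle expresses strongly. It was at 0.1005, 0 and 0.225 FPKM with vehicle and 0.449, 23.8 and 0 FPKM with PTH, so that 1 library held nearly all of the signal. *Ankrd1* entered the test through PTH replicate 2 alone (1.58, SE 1.11, adjusted p = 0.356), and without that library it was not tested. In the same library the heart muscle genes *Nppa* (atrial natriuretic peptide), *Actc1* (cardiac actin) and *Myh6* (cardiac myosin heavy chain) were at 1536, 609 and 179 FPKM, against 0 to 7.05, 0 to 4.37 and 0 to 0.889 FPKM in the other 5. Of the 12 heart markers *Nppb* was listed at 0 in all 6 libraries, and 8 skeletal muscle markers summed to 351 FPKM in PTH replicate 2 and 2.14 to 8.85 elsewhere. Nearly all of the 351 FPKM was *Acta1* (314) and *Ckm* (33.2), and every other marker of that list was at 2.17 FPKM or less in this library. The part of the muscle RNA in the *Ankrd1* value was not tested. *Ctgf* was called higher also without PTH replicate 2 (adjusted p = 0.0341).

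**Figure D3:**
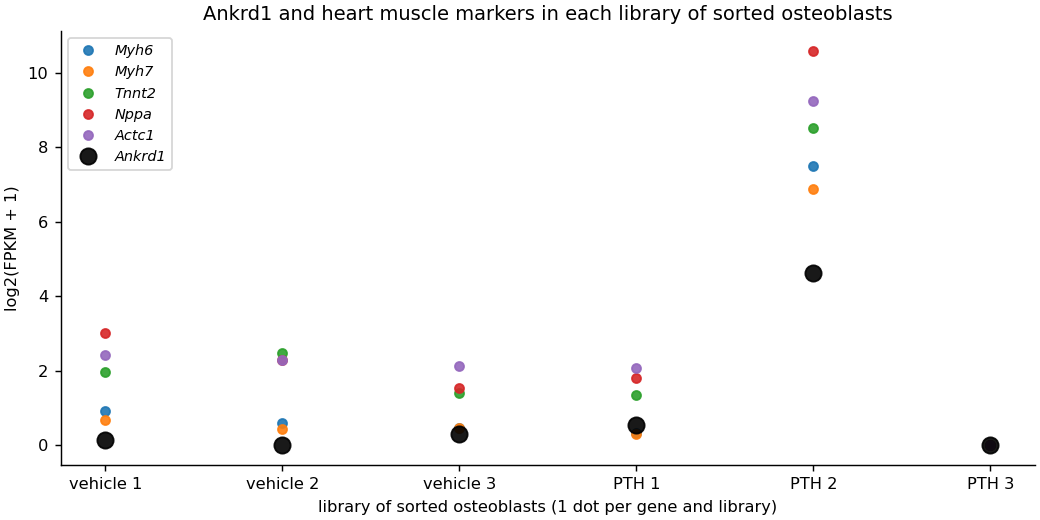
log2(FPKM + 1) of *Ankrd1* (black) and 5 heart muscle markers in each library of sorted osteoblasts, with 1 dot per gene and library. *Ankrd1* is at 23.8 FPKM in PTH replicate 2, where the 5 markers also peak, and at or below 0.449 FPKM in the other 5 libraries.

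The coactivator transcripts showed small differences. *Yap1* was at 22.9, 20.4 and 25.0 FPKM with vehicle and 24.4, 22.9 and 26.3 FPKM with PTH, and *Wwtr1* at 39.8, 38.6 and 50.8 and at 46.0, 41.2 and 48.3 FPKM. The ranges overlapped for both genes. The differences were 0.10 for *Yap1* (95% CI -0.17 to 0.38, adjusted p = 0.548) and 0.07 for *Wwtr1* (95% CI -0.24 to 0.39, adjusted p = 0.721). Regulation of YAP and TAZ is mostly by phosphorylation and localization of the proteins, which RNA levels do not report.

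Around the members, each list of pathway genes is read against the 6.38% called higher and 8.85% called lower of all genes. Of 18 other YAP/TAZ targets tested (19 listed), 4 were called higher and none lower, with a median log2 fold change of 0.31. These were *Ccdc80* (0.72, adjusted p = 0.0204), the growth arrest gene *Gadd45a* (0.58, 0.0479), *Nt5e*, which encodes the ectonucleotidase CD73 (0.57, 0.0210), and *Asap1* (0.55, 0.0463). Among the others, *Amotl2* (0.143), *Axl* (0.566) and *Lats2* (0.157) had adjusted p-values above the threshold. Of 7 TEAD and cofactor genes, *Tead2* (0.72, adjusted p = 0.0358) and *Vgll4* (0.85, 0.0259), a cofactor that competes with YAP for TEAD, were called higher. *Vgll1* was at 9.75, 5.48 and 3.58 FPKM with vehicle and 0.571, 0.382 and 0 FPKM with PTH and was called lower (adjusted p = 0.0142). Of 19 core Hippo genes, the scaffold gene *Sav1* was higher (0.46, 0.0446) and the kinase gene *Stk4* (MST1) lower (-0.81, 0.0379), and the median was 0.19. When PTH replicate 1, 2 or 3 or vehicle replicate 1 or 2 was left out, no core Hippo gene was called.

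The receptor and other matricellular genes that passed the test were all higher with PTH. Of 14 CCN receptor genes tested 2 were called higher and none lower (median 0.32): *Igf2r* (0.66, adjusted p = 0.0192) and the fibronectin receptor gene *Itga5* (0.56, 0.0293). *Itga2b*, the platelet integrin gene of the same list, was at 0.145 to 0.308 FPKM with vehicle and 13.2, 12.3 and 0.484 FPKM with PTH, and did not pass the test (adjusted p = 0.0872). The platelet factor gene *Pf4*, a megakaryocyte marker, was at 1.65 to 3.14 FPKM with vehicle and 136, 105 and 0.587 FPKM with PTH. On the receptor list *Itgb2* went the other way, also without passing the test (-1.43, limma adjusted p = 0.0719). It was at 14.7, 13.5 and 10.3 FPKM with vehicle and 6.59, 6.39 and 1.34 FPKM with PTH. Of 16 other matricellular genes 3 were called higher and none lower (median 0.32). They were *Spp1* (osteopontin, 0.81, adjusted p = 0.0139), *Comp* (0.79, 0.0177) and *Thbs4* (0.75, 0.0245). The median level of this list was 63.4 to 74.6 FPKM in vehicle libraries. Of genes with a mean of at least 100 FPKM, 24.02% were called higher and 2.67% lower, with a median of 0.25. Of 16 SRF/MRTF genes the adhesion gene *Vcl* was called higher (0.72, 0.0241) and the median was -0.02, but smooth muscle genes spread widely: *Acta2* was at 69.4 to 83.4 FPKM with vehicle and 54.4, 282 and 26.7 FPKM with PTH. Without PTH replicate 2 the SRF/MRTF median was -0.22, with *Vcl* and *Cnn2* called higher and *Tpm2* lower, and the share of all genes called was 5.28% higher and 7.01% lower. Without vehicle replicate 1 or 2, at most 1 gene in all passed the test in this comparison, so every call above depends on both libraries.

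The second comparison asked how the genes respond to overexpression of *Slpi* in MC3T3-E1 cells. *Nov*, *Ankrd1*, *Wisp2*, *Ctgf* and *Cyr61* fell, to 27.6%, 55.3%, 62.3%, 68.5% and 87.3% of the mock mean, and *Wisp1* and *Wwtr1* rose by less than 10%. In this experiment 31.9% of 11466 genes tested were called higher and 28.9% lower (60.8% in all, against 7 of 8 members), and groups did not overlap for 67.1% of genes, against 8 of 8 members. Changes of at least 2-fold were rare, at 0.384% of genes lower and 0.75% higher at an unadjusted p under 0.05, and *Nov* was the 1 member among them. Osteoblast markers moved with the groups: 6 of 8 were called higher in Slpi cells and none lower, among them *Ibsp* (bone sialoprotein, 40.1 ± 2.33 and 381 ± 23.96 FPKM), *Alpl* (alkaline phosphatase, 52.6 ± 2.12 and 174 ± 5.57 FPKM) and *Sp7* (1.49, adjusted p = 6.36e-08), and their part in the changes of the members was not tested. The median log2 fold change of the 8 members was -0.33, and that of all genes was below 0.01.

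*Nov* (chromosome 15, 54745702 to 54754039, mm10) was at 320, 305 and 327 FPKM in mock cells and 87.7, 83.9 and 91.8 FPKM in Slpi cells. The gap between the groups was many times the spread within either. The log2 fold change was -1.84 (SE 0.0422, 95% CI -1.94 to -1.75, limma adjusted p = 6.22e-08), lower than that of all but 0.0959% of genes tested. It lay between -1.90 and -1.81 under every alternative. With this fall, the first CCN gene of mock cells became the third in Slpi cells, behind *Cyr61* and *Wisp2*.

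*Wisp2* (chromosome 2, 163820861 to 163833146, mm10) was at 166, 161 and 165 FPKM in mock cells and 104, 96.6 and 105 FPKM in Slpi cells. Its difference was -0.68 (SE 0.0392, adjusted p = 5.36e-06). *Ctgf* was low, at 5.81, 5.06 and 5.56 FPKM in mock and 4.30, 3.13 and 3.82 FPKM in Slpi cells. All Slpi libraries were below all mock libraries for both genes, and the difference for *Ctgf* was -0.45 (SE 0.0933, adjusted p = 0.00317). *Cyr61* was at 163, 174 and 165 FPKM in mock and 161, 141 and 137 FPKM in Slpi cells. Slpi replicate 1 lay just under the mock range, and the difference of -0.20 (SE 0.0600, adjusted p = 0.0199) lost its call without Slpi replicate 2 (adjusted p = 0.0684), Slpi replicate 3 (0.0667) or mock replicate 2 (0.0689). *Wisp1* (chromosome 15, 66891320 to 66923201, mm10) went the other way, from 18.3, 18.7 and 18.5 FPKM in mock to 19.8, 20.97 and 20.0 FPKM in Slpi cells. That rise of 0.12 (SE 0.0371, adjusted p = 0.0194) was not called after upper quartile scaling (0.07, adjusted p = 0.119), nor without Slpi replicate 2 (0.0644), mock replicate 1 (0.0633) or mock replicate 3 (0.0584).

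*Ankrd1* (chromosome 19, 36111961 to 36120099, mm10), whose promoter is printed above, was at 16.1, 16.6 and 16.0 FPKM in mock cells and 9.89, 8.32 and 8.73 FPKM in Slpi cells. The groups were well apart, with a difference of -0.79 (SE 0.0597, adjusted p = 1.83e-05). The 12 heart markers summed to only 3.43 to 4.64 FPKM over these 6 libraries, and *Myh6*, *Myh7*, *Myl7* and *Mybpc3* were listed at 0 in all of them. *Yap1* (chromosome 9, 7931999 to 8004596, mm10) was at 26.7, 26.7 and 26.2 FPKM in mock and 29.0, 27.98 and 27.5 FPKM in Slpi cells (0.08, SE 0.0345, adjusted p = 0.0693). *Wwtr1* (chromosome 3, 57455649 to 57575910, mm10) was at 24.3, 24.7 and 24.3 FPKM in mock and 26.5, 26.1 and 26.4 FPKM in Slpi cells (0.11, SE 0.0316, adjusted p = 0.0188). Both coactivator genes were slightly above their mock ranges, opposite in direction to the 3 classical targets, but the call of *Wwtr1* was lost after upper quartile scaling (0.05, adjusted p = 0.173), under quantile normalization (0.06, adjusted p = 0.114) and without mock replicate 1 (0.0609) or 3 (0.0644).

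**Figure D4:**
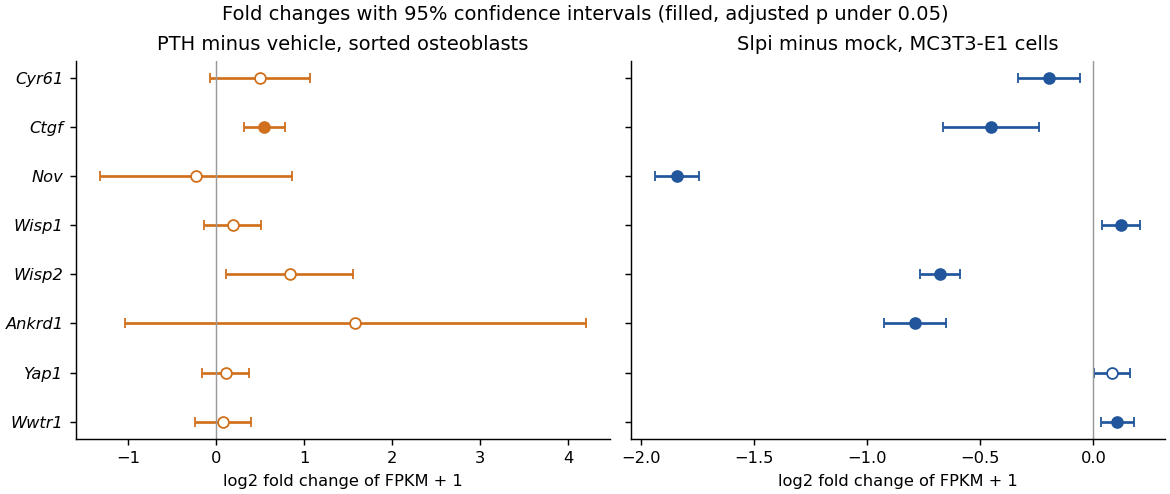
Log2 fold changes of the 8 genes with 95% confidence intervals from limma, for PTH against vehicle (left, 3 against 3 libraries) and Slpi against mock (right, 3 against 3 libraries), with filled dots at an adjusted p under 0.05. *Ctgf* is at 0.55 on the left and -0.45 on the right, *Nov* at -1.84 on the right is the lowest, and the interval of *Ankrd1* on the left spans -1.04 to 4.20.

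Related target genes were mostly lower in Slpi cells. Of 18 other YAP/TAZ targets tested 11 were called lower and 3 higher, with a median of -0.27 against 0.00 over all genes and a background of 28.9% lower. The largest falls were those of *Fjx1* (-0.67, adjusted p = 0.000150), the tissue factor gene *F3* (-0.61, 2.87e-05) and the receptor kinase gene *Axl*, which went from 52.6 ± 0.455 to 35.6 ± 0.689 FPKM (SD, n = 3; -0.55, limma adjusted p = 5.06e-06). *Nt5e* (0.93, 5.82e-05), *Dock5* (0.51, 0.000220) and *Asap1* (0.09, 0.0342) were higher. Of 16 SRF/MRTF genes 11 were lower and 1 higher, with a median of -0.51. Contractile genes led them: *Actg2* went from 78.6 ± 2.28 to 31.8 ± 0.442 FPKM (-1.28, limma adjusted p = 1.20e-07, n = 3), *Cnn1* from 9.82 ± 0.491 to 4.19 ± 0.389 and *Myl9* from 319 ± 8.67 to 163 ± 6.94. *Actg2* and *Cnn1* were lower by at least 2-fold, and the 1 gene called higher was *Mkl2* (MRTF-B, 0.14, adjusted p = 0.0284). The smooth muscle and pericyte markers, which share *Cnn1* and *Acta2* with this list, summed to 716 to 748 FPKM in mock and 418 to 456 FPKM in Slpi cells, nearly all of it *Acta2* (709 ± 16.6 and 415 ± 18.3 FPKM). Of the 3 of these 6 markers that were tested, *Acta2* and *Cnn1* were lower, but the pericyte marker *Cspg4* was higher (10.4 ± 0.230 and 19.1 ± 1.15 FPKM, 0.82, adjusted p = 6.62e-06).

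**Figure D5:**
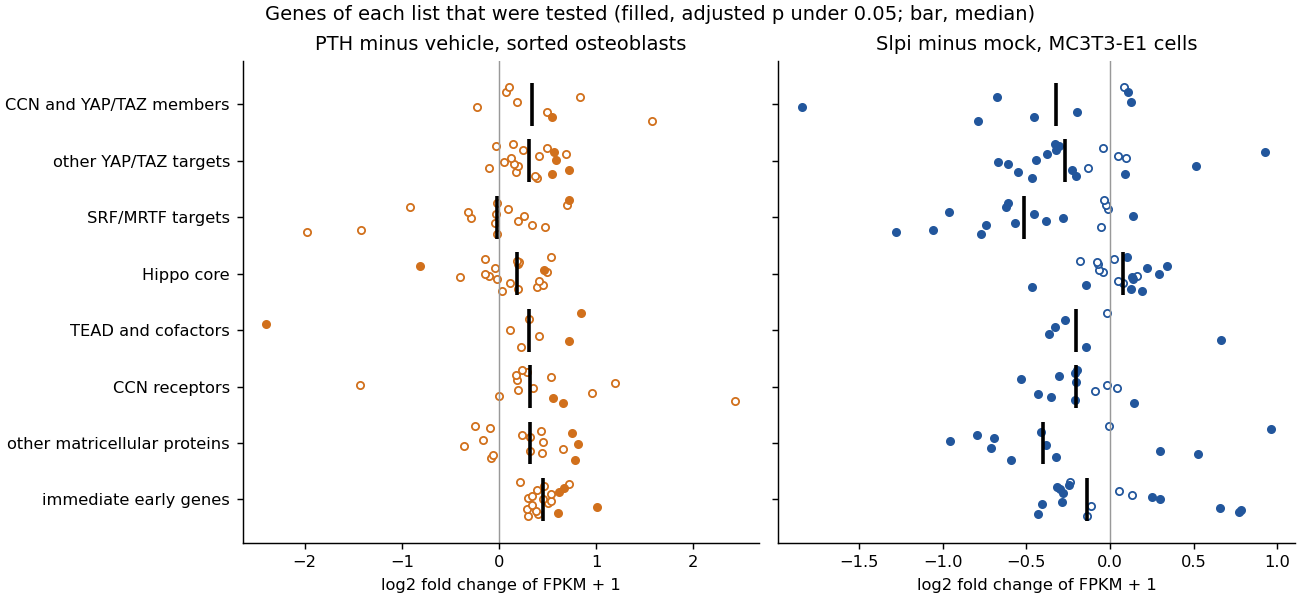
Log2 fold changes of the tested genes of each list for PTH against vehicle (left) and Slpi against mock (right), with 1 dot per gene, filled at an adjusted p under 0.05, and a bar at the median. Medians of the other YAP/TAZ targets are 0.31 on the left and -0.27 on the right, and those of the SRF/MRTF targets -0.02 and -0.51.

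The core Hippo genes and the TEAD and cofactor genes moved in both directions in MC3T3-E1 cells. Of 19 core Hippo genes 8 were higher and 2 lower, with a median of 0.08. Of all genes tested 31.9% were higher and 28.9% lower. The kinase genes *Stk4* (0.34, adjusted p = 0.00103) and *Stk3* (0.22, 0.0318) and *Nf2* (merlin, 0.29, 0.000312) were higher, and *Amotl2* (-0.47, 5.39e-05), which is itself a YAP target, and *Frmd6* (-0.14, 0.0225) were lower. Of 6 TEAD and cofactor genes tested, *Tead2* was higher (0.66, 4.98e-06) whereas *Tead3* (-0.36, 0.000785), *Tead4* (-0.33, 0.0126), *Vgll3* (-0.27, 0.000241) and *Tead1* (-0.14, 0.0382) were lower. Summed FPKM of this list were 120 to 125 in mock and 119 to 122 in Slpi cells, so the totals of the groups overlapped.

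Of 12 CCN receptor genes tested 8 were lower and 1 higher (median -0.20), where 28.9% of all genes were lower and 31.9% higher. *Lrp1*, a receptor of CTGF, went from 224 ± 4.47 to 155 ± 11.0 FPKM (SD, n = 3; -0.53, limma adjusted p = 5.02e-05). The integrin genes *Itga6* (-0.43, 0.000399) and *Itga5* (-0.35, 0.000195) were lower too, and *Igf2r* was higher (0.14, 0.00428). Of 12 other matricellular genes 8 were lower and 3 higher (median -0.40). Among them *Tgfbi* (-0.96, 2.45e-06), *Thbs2* (-0.79, 1.89e-06) and *Sparcl1* (-0.71, 8.92e-06) fell, while *Tnc* (0.96, 3.66e-07), *Smoc2* (0.53, 0.000941) and *Sparc* (osteonectin, 0.30, 0.000243) rose. Immediate early genes went both ways, with 5 higher and 7 lower of 17 tested and a median of -0.14. These counts stand beside the same 31.9% higher and 28.9% lower of all genes. *Egr1* (0.77, 0.000321), *Egr2* (0.78, 0.000337) and *Egr3* (0.66, 0.000150) were higher, and *Dusp1* (-0.43, 0.000362), *Fosb* (-0.41, 0.0024) and *Nr4a1* (-0.32, 0.0128) lower.

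For each member that passed the test, the genes most alike over the 6 libraries of that experiment were sought by Pearson's r of log2(FPKM + 1), as a description. For *Ctgf* in sorted osteoblasts these were *Arf5* (r = 0.996), *Foxj1* (0.996) and *Adamts18* (0.995). In MC3T3-E1 cells the profile of *Nov* was closest to those of *Cdc42ep2*, *Akap12* and *Adamts1* (r = 0.999 to 1.000), of which *Akap12* went from 20.1 to 6.93 FPKM. *Nid2*, *Ndufaf3* and *Kdm4a* were closest to *Ankrd1*, and *Mfsd3*, *Tcta* and *Fstl1* to *Wisp2* (all r = 1.000 at 3 decimals). *Bin1*, *Adgrl3* and *Cxcl16* were closest to *Ctgf* (r = 0.997 to 0.999), *Sdha*, *Pdk2* and *Iqsec2* to *Cyr61* (0.990 to 0.996), *Prpsap2*, *Usp14* and *Sapcd2* to *Wisp1* (0.996 to 0.997), and *Dcbld1*, *Sec22c* and *Sin3a* to *Wwtr1* (0.998 to 0.999). The 6 points of each correlation fall into 2 groups of 3 and come from the same libraries for every gene.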

How the data were processed

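RNA-Seq values of 12 libraries were analysed, 3 each of vehicle, PTH, mock and Slpi. The authors deposited FPKM per gene and library, from 75-base single-end reads mapped to mm10 with TopHat 2.0.13, Bowtie2 2.2.3 and SAMtools 0.1.19 and computed with Cuffnorm of Cufflinks 2.2.1. The gene annotation and the scaling option are not given in the sources used here. Sorted cells were amplified with SMART-Seq v4. For MC3T3-E1 cells the labels name a TruSeq stranded kit and the methods SMART-Seq. FPKM are not counts and give no depth. The step of 1 read in low values gave relative depths of 0.788 to 1.402 in sorted osteoblasts and 0.869 to 1 in MC3T3-E1 cells.

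Genes that reached an FPKM of 1 in at least 1 of 6 libraries were tested as log2(FPKM + 1) with limma 3.58.1 (eBayes with trend, R 4.3.3), in each experiment separately, without a block, and p was adjusted by the Benjamini-Hochberg method over all genes tested. Where the text gives a number alone after a log2 fold change, it is this adjusted p. Exact permutation tests were two-sided (Python 3.11.15, scipy 1.17.1). Coordinates are of GENCODE M21. The alternatives tried were no filter or a filter on the mean FPKM (at least 1), a pseudocount of 0.1, fits with a replicate block, without trend or unmoderated, quantile normalization, upper quartile scaling, and leaving out each library. Genes of at least 100 FPKM and the lists without PTH replicate 2 were added after seeing the data. Of each list, genes passing the test were named, or the 3 largest rises and 3 largest falls where more than 5 passed, and other genes were chosen after their values were seen. Members and lists were chosen with earlier results of these data known. Lists of osteocyte, endothelial, chondrocyte, megakaryocyte, stromal and muscle markers were also summed: osteocyte 903 to 1379 FPKM in sorted cells and 12.4 to 18.0 in MC3T3-E1 cells, endothelium 8.86 to 15.9 and 0.473 to 0.722, chondrocyte 603 to 759 (mostly *Col2a1*) and 118 to 139, megakaryocyte 3.51 to 185 and 5.44 to 8.35, stroma and fat 41.9 to 49.5 and 60.2 to 84.6. Protein sequences were not used here.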

Additional observations from a re-analysis of the deposited data

How the results depend on the processing

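Over the libraries left out, the number of genes called in the PTH comparison ranged from 0 to 674 higher (830 with all libraries) and from 0 to 895 lower (1151). It was 517 higher with no filter on low values, and 0 higher and 1 lower in the unmoderated model, where the call of *Ctgf* was lost too (0.55, adjusted p = 0.0768). Members called higher numbered 0 to 1 over the libraries left out, 0 under quantile normalization and 0 unmoderated, against 1. With a pseudocount of 0.1, genes changed at least 2-fold numbered 362 higher and 937 lower for PTH and 137 and 129 for Slpi. For PTH, quantile normalization gave *Ctgf* 0.22 (adjusted p = 0.163) and reversed *Wisp1* (-0.087) and *Wwtr1* (-0.026), neither called in any setting, and *Nov* was -0.61 to 0.33 over the libraries left out, positive without PTH replicate 3. *Ctgf* was 0.49 to 0.61 over the libraries left out. For Slpi, members called higher numbered 0 to 2 over the libraries left out, 1 under quantile normalization and 0 after upper quartile scaling, against 2. *Wisp1* was 0.072 after upper quartile scaling, and *Wwtr1* 0.054 there and 0.064 under quantile normalization. In the unmoderated model *Cyr61* was -0.20 (adjusted p = 0.1004) and *Yap1*, at 0.082, passed the test (adjusted p = 0.0462). Over the libraries left out, *Cyr61* was -0.27 to -0.15, *Wisp1* 0.10 to 0.14 and *Wwtr1* 0.10 to 0.11. The calls of *Nov*, *Wisp2*, *Ankrd1* and *Ctgf* in the Slpi comparison held in every alternative, with adjusted p-values up to 0.000676, 0.00198, 0.00327 and 0.0371. Among windows of genes tested in both experiments, 11.9% held the TEAD motif. The cause of these changes was not tested. Without PTH replicate 2 *Ankrd1* gave no value.

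In sorted osteoblasts, same-numbered libraries correlated by 0.0294, 0.0735 and 0.102 in their deviations from the group means, each best with its own number. In MC3T3-E1 cells these correlations were -0.0523 to 0.0385. The main fits had no block, and whether the numbers pair the sorted libraries was not settled. With the replicate block, 1028 genes were higher and 1234 lower for PTH, 3752 and 3420 for Slpi, *Ctgf* had an adjusted p of 0.0242 for PTH, no call of a member changed, and 8 immediate early, 4 core Hippo and 4 CCN receptor genes were called higher for PTH in place of 4, 1 and 2.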
